A study of Mus musculus with 20 samples.

Results

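The transcripts of 10 genes of the transforming growth factor beta (TGF-beta) pathway were followed across all 20 libraries. They were listed by symbol as 3 ligands (Tgfb1, Tgfb2, Tgfb3), 3 receptors (Tgfbr1, Tgfbr2, Tgfbr3), 3 SMADs (Smad2, Smad3, Smad7) and Tgfbi, a matrix protein named for its induction by TGF-beta. Each symbol matched 1 Ensembl gene, so the set holds 10 of the 46078 genes in the count tables. The genes were chosen for their place in the pathway, with earlier results of these data known. All 10 passed the filter on low counts in every comparison, and the lowest count of any of them in a library was 39, for Tgfbi in a vehicle contralateral library.

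Brain tissue came from wild-type C57BL/6J mice aged 18 months, which the study's methods give as male, collected 7 weeks after DH stroke, in which hypoxia is added to a blockage of a distal branch of the cortical blood supply. From week 1 they were injected under the skin, 3 times a week for 6 weeks, with PBS (vehicle) or with 4 g/kg of HPBCD (2-hydroxypropyl-beta-cyclodextrin), a ring of sugars that carries lipids. The infarct itself was cut away, and the adjoining peri-infarct tissue and the matching contralateral tissue were sequenced, with 5 libraries in each of the 4 groups. All groups share the stroke, the age and the strain, so no group is free of stroke. The contralateral tissue of the same mice served as the reference. Treatment is given here as the sample labels state it, and no gene in these tables shows by itself which mice received HPBCD. Whether the labels match the injections could not be checked, and it is in doubt. In peri-infarct tissue 5 of 7 neuronal markers were lower and 2 of 6 astrocyte markers higher under the HPBCD label. Of all genes tested there, 21.4% passed an edgeR adjusted p of 0.05, 12.4% as higher and the rest as lower. The study describes astrogliosis markers there as lower and neuronal transcripts as higher with HPBCD. Were the labels exchanged between mice, the treatment and interaction differences would turn their sign and the vehicle and HPBCD region results would trade places.

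TGF-beta is secreted in a latent form and is released from the matrix or the cell surface by integrins and proteases. The active ligand is bound by TGFBR2, which recruits and phosphorylates TGFBR1, while TGFBR3 (betaglycan) presents ligand to the pair. TGFBR1 then phosphorylates SMAD2 and SMAD3, which enter the nucleus with SMAD4, and SMAD7 is an inhibitor that the pathway itself induces. After brain injury the pathway is known for scar and matrix formation and for the control of microglia, and in the healthy brain microglia depend on it. Because SMAD2 and SMAD3 are activated by phosphorylation, their transcript levels do not report their activity.

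Gene counts per library ran from 14445021 to 22171627, and 3 counts corresponded to 0.1353 to 0.2077 CPM (each gene's counts relative to the library total, TMM-scaled here over the 20 libraries). Markers of neurons, astrocytes, oligodendrocytes and microglia were present in every library, as the tissue label states. Several libraries stood apart, of which 2 contralateral ones did so on markers of neighbouring regions. In vehicle contralateral replicate 1 the 6 striatal markers summed to 2060 CPM against 123.5 to 192.2 CPM in the other libraries of its group. In HPBCD contralateral replicate 3 the 4 choroid plexus markers summed to 632.7 CPM against 1.30 to 6.85 CPM in the rest of its group. The choroid plexus sum was also high in HPBCD peri-infarct replicate 3 (676.7 CPM, others 26.0 to 204.1 CPM) and, at a lower level, in vehicle peri-infarct replicate 1 (75.4 CPM, others 5.84 to 29.3 CPM). HPBCD contralateral replicate 4 had the fewest gene counts and the largest shares of read pairs without a feature (9.503%, others at most 5.858%) and ambiguous (8.03%, others at most 4.162%). In bulk tissue, fewer cells of a type and less RNA per cell cannot be told apart.

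Levels per kilobase used the merged length of all annotated exons of a gene (5042 bp for Tgfb1), which may exceed that of the transcripts present. The order of the genes and the ligand shares depend on this length. Per kilobase of exon, the intracellular signalling genes Smad3 and Smad7 stood highest in the contralateral tissue of vehicle mice, at 11.3 ± 1.71 and 6.34 ± 0.626 CPM per kb (mean ± SD, n = 5). Tgfb3 followed at 4.26 ± 0.412 CPM per kb and Tgfbr1 at 3.73 ± 0.280 CPM per kb. Tgfbr2, Smad2 and Tgfb2 lay together at 2.75, 2.63 and 2.63 CPM per kb with overlapping ranges. Tgfbr3 (1.57 ± 0.448 CPM per kb), Tgfb1 (1.07 ± 0.0873 CPM per kb) and Tgfbi (0.779 ± 0.276 CPM per kb) were lowest, and the ranges of Tgfb1 and Tgfbi overlapped. Contralateral tissue of the mice labelled HPBCD gave the same order, with Smad3 at 10.5 ± 1.01 CPM per kb and Tgfbi at 0.862 ± 0.400 CPM per kb. The order was different in the peri-infarct tissue of both treatments. In vehicle mice Smad3 stayed highest (13.4 ± 0.348 CPM per kb), Tgfbr1 came second (8.41 ± 2.99 CPM per kb) and overlapped Smad7, and Tgfbr3 was lowest at 2.15 ± 0.401 CPM per kb, overlapping Tgfbi. In the HPBCD libraries Tgfbr1 (12.2 ± 3.09 CPM per kb), Smad3 (11.9 ± 1.58 CPM per kb) and Tgfbr2 (11.0 ± 2.88 CPM per kb) overlapped at the top, and Smad2 was lowest at 2.78 ± 0.192 CPM per kb, below every library of the next gene, Tgfb1.

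The first comparison asked how peri-infarct tissue differs from contralateral tissue 7 weeks after stroke, within each treatment. In vehicle mice 4 of the 10 genes were higher in the peri-infarct tissue by edgeR's quasi-likelihood test with Benjamini-Hochberg adjustment (Tgfb1, Tgfbr1, Tgfbr2 and Tgfbi) and none was lower. Among all 15801 genes tested 20.2% were called, 10.5% as higher and 9.70% as lower, and the median log2 fold change was 0.48 over the 10 genes and 0.01 over all genes. The 3195 calls over all genes became 2000 when replicate 5 of vehicle contralateral tissue was omitted and 2038 when replicate 4 of vehicle peri-infarct tissue was. In mice labelled HPBCD 8 of the 10 were higher, all but Smad2 and Smad3, where 54.6% of 16047 genes were called, 30.3% as higher and 24.3% as lower. There the median log2 fold change was 1.53 over the 10 genes and 0.03 over all genes. The replicates of the regions did not overlap for 2 of the 10 genes in vehicle (13.4% of all genes did not overlap and 6.72% were higher without overlap) and for 7 in HPBCD (42.5% and 24.3% of all genes). Without vehicle contralateral replicate 1, the library with high striatal markers, the same number of genes, 4, was called in vehicle, with log2 values of 1.45 (Tgfb1), 1.17 (Tgfbr1), 1.08 (Tgfbr2) and 1.70 (Tgfbi) and edgeR adjusted p-values from 0.00690 to 0.0197. Without HPBCD contralateral replicate 3 or 4 or HPBCD peri-infarct replicate 3, in turn, 8 genes were called in HPBCD mice each time.

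**Figure D1:**
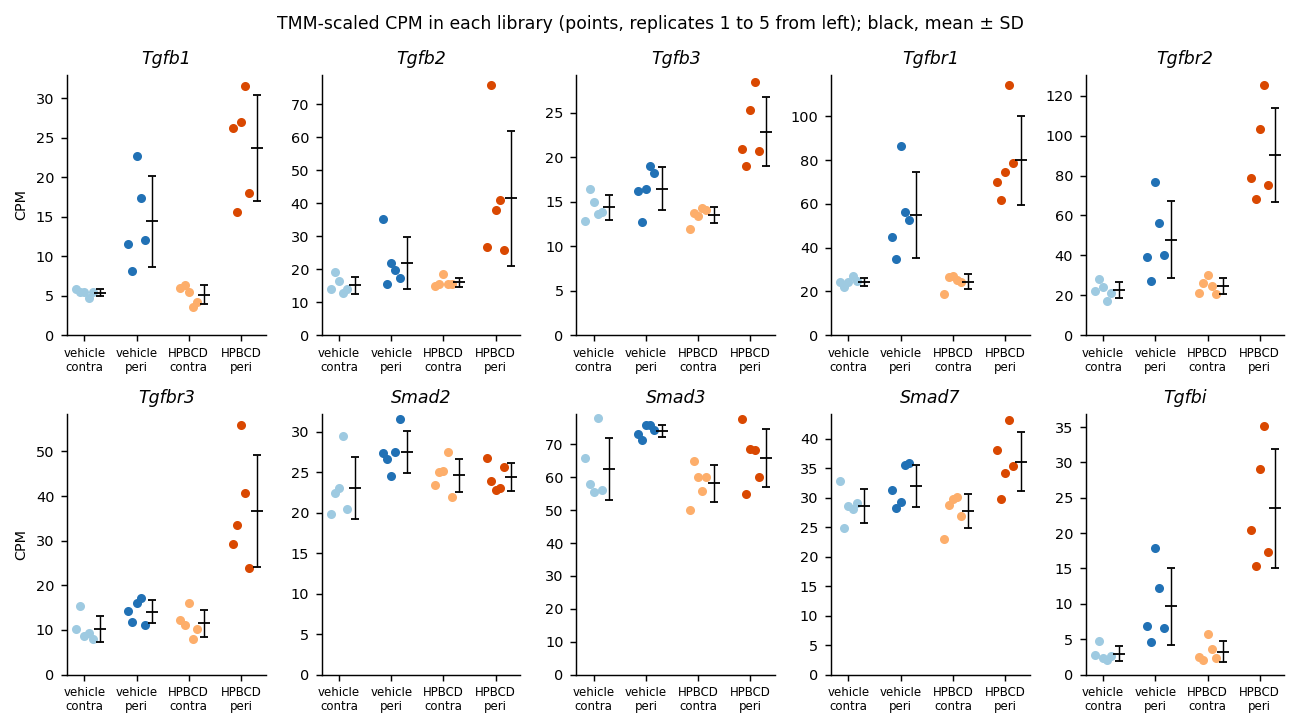
TMM-scaled CPM (vertical axes, each starting at 0) of the 10 genes in the 4 groups, with 1 point for each of the 5 libraries and the mean ± SD in black. Contralateral groups sit together for every gene, HPBCD peri-infarct points lie above the HPBCD contralateral ones for the ligands, receptors and Tgfbi, and a single HPBCD peri-infarct library reaches 75.9 CPM for Tgfb2.

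Tgfb1, the ligand most tied to microglia and macrophages, had the largest fold change of the 3 ligands in both treatments. It lies on chromosome 7 (25687002 to 25705077, plus strand, GRCm38). In vehicle contralateral replicates 1 to 5 it measured 5.88, 5.45, 5.45, 4.67 and 5.51 CPM. The matching peri-infarct libraries held 11.5, 8.15, 22.7, 17.4 and 12.1 CPM. Each peri-infarct value lay above all 5 contralateral values, and replicate 3 was highest. The log2 fold change was 1.40 (SE 0.24, edgeR adjusted p = 0.00365), a 2.64-fold rise. In mice labelled HPBCD the contralateral libraries gave 5.94, 6.40, 5.45, 3.58 and 4.23 CPM. Their peri-infarct counterparts gave 26.2, 15.6, 27.0, 31.6 and 18.0 CPM. Groups were again fully separate, and the rise was 4.58-fold (log2 2.19, SE 0.21, edgeR adjusted p = 3.68e-06). All 5 mice of each treatment had the higher value on the peri-infarct side.

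Tgfb2, a ligand with broad roles in development and in matrix-forming cells, was less uniform. It is encoded on chromosome 1 (186622792 to 186705989, minus strand), and 124 bp of its exons overlap Gm29491 on the opposite strand, so its counts are uncertain to that extent. Vehicle contralateral libraries held 14.0, 19.2, 16.3, 12.7 and 14.0 CPM. On the peri-infarct side of the same mice the values were 35.4, 15.6, 21.9, 19.9 and 17.4 CPM. These groups overlapped, with replicate 1 far above the rest and replicate 2 lower than on its contralateral side. The log2 difference of 0.52 (SE 0.21, 95% interval 0.07 to 0.98) did not pass (edgeR adjusted p = 0.0993), and it was 0.28 without vehicle peri-infarct replicate 1. In HPBCD mice contralateral values were 15.0, 15.6, 18.7, 15.4 and 15.5 CPM. Peri-infarct values were 26.9, 75.9, 37.9, 40.9 and 25.7 CPM. The groups did not overlap, although 1 library, HPBCD peri-infarct replicate 2, was far above the next. Tgfb2 rose 2.61-fold (log2 1.38, SE 0.27, edgeR adjusted p = 0.000762), and by 1.02 on the log2 scale without that library.

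Tgfb3, the ligand with the highest level per length in contralateral tissue, moved least. Its exons on chromosome 12 (86056745 to 86079041, minus strand) overlap Gm37804 and Gm48008 on the opposite strand over 420 bp, which makes its counts uncertain. Levels in vehicle contralateral tissue were 12.9, 16.5, 15.0, 13.6 and 13.9 CPM. In vehicle peri-infarct tissue they were 16.2, 12.7, 16.5, 19.0 and 18.2 CPM. The groups overlapped and the log2 difference of 0.18 (SE 0.11, 95% interval -0.07 to 0.44) did not pass (edgeR adjusted p = 0.279). HPBCD contralateral libraries measured 12, 13.7, 13.4, 14.3 and 14.1 CPM. HPBCD peri-infarct libraries measured 20.9, 19.0, 25.3, 28.5 and 20.7 CPM. All 5 exceeded every contralateral library, a 1.69-fold rise (log2 0.76, SE 0.12, edgeR adjusted p = 0.000118).

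The stretches before the start sites of Tgfb1 and Tgfb2 are printed as those of the ligands with the larger changes around the infarct. Of the 10 genes, 6 had a usable RefSeq promoter entry (GRCm38.p6), searched over 250 bases before the start on both strands. The motifs were CAGAC (a SMAD-binding element), GTCTAGAC (the SMAD palindrome), TGANTCA (AP-1), GGGCGG (a GC box) and TATAAA. A SMAD palindrome does not hold the whole of the shorter motif, though the ends of both can overlap. Capitals mark a match, in the gene's own orientation, so a match on the other strand reads as its reverse complement. The Tgfb1 sequence is chr7:25686752-25687001, plus strand, and the Tgfb2 sequence is chr1:186705990-186706239, minus strand.
Tgfb1: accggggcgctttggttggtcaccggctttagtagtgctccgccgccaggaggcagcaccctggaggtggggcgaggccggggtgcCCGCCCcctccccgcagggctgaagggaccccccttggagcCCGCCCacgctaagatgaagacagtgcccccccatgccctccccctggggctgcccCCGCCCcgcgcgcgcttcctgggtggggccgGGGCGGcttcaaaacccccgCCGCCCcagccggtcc
Tgfb2: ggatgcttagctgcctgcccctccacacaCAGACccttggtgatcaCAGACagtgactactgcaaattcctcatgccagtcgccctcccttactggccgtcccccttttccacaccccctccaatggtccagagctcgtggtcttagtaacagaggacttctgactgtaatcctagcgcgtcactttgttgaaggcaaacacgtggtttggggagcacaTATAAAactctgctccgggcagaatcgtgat

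The Tgfb1 stretch held 5 GC boxes and no TATAAA, with a GC content of 75.2% against a median of 52.4% over 32851 promoters. A GC box was present in 32.7% of all promoters. The Tgfb2 stretch held TATAAA starting 31 bases before the start, a match found in 12.4% of promoters, and CAGAC at 221 and 204 bases before it. CAGAC occurred in 42.2% of promoters and was not found for Tgfb1. No match says only that these letters are not in this window.

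The signalling receptors rose in both treatments. Tgfbr1, the type I receptor kinase (chromosome 4, 47353222 to 47414931, plus strand), measured 24.1, 21.9, 24.1, 27.0 and 24.7 CPM in vehicle contralateral tissue. In vehicle peri-infarct tissue it measured 44.8, 34.7, 86.6, 56.3 and 52.5 CPM. The groups were separate and the gene rose 2.24-fold (log2 1.16, SE 0.20, edgeR adjusted p = 0.00365). HPBCD contralateral libraries held 18.8, 26.8, 27.1, 25.3 and 24.5 CPM. HPBCD peri-infarct libraries held 70.0, 61.9, 74.7, 114.3 and 78.5 CPM. Every peri-infarct library was above 60 CPM and no contralateral library reached 30 CPM. The rise was 3.26-fold (log2 1.70, SE 0.16, edgeR adjusted p = 2.59e-06).

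Tgfbr2, the type II receptor that binds ligand first, lies on chromosome 9 (116084293 to 116175360, minus strand). It gave 22.0, 28.4, 24.1, 17.1 and 21.2 CPM in vehicle contralateral tissue. The vehicle peri-infarct libraries gave 39.2, 27.2, 76.8, 56.1 and 40.3 CPM. Replicate 2 alone kept the groups from separating, since its peri-infarct value was slightly under its contralateral one. Tgfbr2 was still higher, 2.11-fold (log2 1.08, SE 0.24, edgeR adjusted p = 0.0113). In the contralateral tissue of HPBCD mice it measured 21.4, 26.4, 30.4, 24.8 and 20.7 CPM. In their peri-infarct tissue it measured 78.9, 68.5, 103.5, 125.2 and 75.2 CPM. The groups were widely separate, with a 3.65-fold rise (log2 1.87, SE 0.17, edgeR adjusted p = 2.28e-06).

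Tgfbr3, the co-receptor betaglycan, was raised in the HPBCD mice and not called in the vehicle mice. It lies on chromosome 5 (107106570 to 107289629, minus strand) and shares 297 bp of exon with Gm43422 on the same strand, so its counts are uncertain over that stretch. Vehicle contralateral libraries gave 10.1, 15.3, 8.71, 9.35 and 7.87 CPM. Vehicle peri-infarct libraries gave 14.2, 11.7, 16.1, 17.1 and 11.1 CPM. The groups overlapped through contralateral replicate 2, and the log2 difference of 0.44 (SE 0.19, 95% interval 0.03 to 0.86) did not pass (edgeR adjusted p = 0.124). Without that contralateral library it was 0.64 (edgeR adjusted p = 0.0221). In HPBCD mice the contralateral values were 12.3, 11.0, 16.1, 7.99 and 10.1 CPM. The peri-infarct values were 29.2, 33.6, 56.0, 40.8 and 23.8 CPM. The highest contralateral library lay below the lowest peri-infarct one, a 3.18-fold rise (log2 1.67, SE 0.23, edgeR adjusted p = 5.89e-05). The same contralateral library, replicate 3, is the one with high choroid plexus markers, and the log2 rise was 1.82 without it.

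Among the SMADs, the receptor-activated mediators were close to level. Smad2 (chromosome 18, 76241580 to 76310963, plus strand) ran from 19.9 to 29.5 CPM in vehicle contralateral and from 24.5 to 31.6 CPM in vehicle peri-infarct tissue. In HPBCD mice its ranges were 22.0 to 27.5 CPM and 22.8 to 26.7 CPM. The log2 differences were 0.24 (95% interval -0.00 to 0.48, edgeR adjusted p = 0.146) and -0.01 (95% interval -0.20 to 0.18, edgeR adjusted p = 0.943). Its groups overlapped in both treatments. Smad3 (chromosome 9, 63646767 to 63757994, minus strand) ran from 55.5 to 77.9 CPM and from 71.4 to 75.9 CPM in the vehicle regions. Its vehicle peri-infarct libraries lay close together, at 74.1 ± 1.93 CPM. The log2 difference was 0.23 (SE 0.09, edgeR adjusted p = 0.0988) in vehicle and 0.18 (SE 0.10, edgeR adjusted p = 0.143) in HPBCD. With limma voom both Smad2 and Smad3 were called in vehicle mice, each at 0.32.

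Smad7, the inhibitory SMAD (chromosome 18, 75367529 to 75395935, plus strand), rose modestly in the mice labelled HPBCD. Their contralateral libraries held 23.0, 28.7, 29.8, 30.1 and 26.9 CPM. Their peri-infarct libraries held 38.1, 29.8, 34.1, 43.2 and 35.3 CPM. The groups overlapped at replicate 2, all 5 mice were higher on the peri-infarct side, and the rise was 1.30-fold (log2 0.38, SE 0.11, edgeR adjusted p = 0.00866). In vehicle mice Smad7 went from 28.6 ± 2.83 to 32 ± 3.51 CPM, a log2 difference of 0.15 (SE 0.09) that did not pass (edgeR adjusted p = 0.272).

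Tgfbi, the secreted matrix protein, had the largest change of the set in both treatments. It lies on chromosome 13 (56609523 to 56639562, plus strand). Vehicle contralateral libraries gave 2.80, 4.74, 2.37, 2.12 and 2.66 CPM. Vehicle peri-infarct libraries gave 6.83, 4.67, 17.9, 12.3 and 6.56 CPM. Replicate 2 was level between its regions and made the groups touch, while replicates 3 and 4 were highest. The rise was 3.26-fold (log2 1.70, SE 0.37, edgeR adjusted p = 0.00951). In HPBCD mice the contralateral tissue gave 2.45, 2.12, 5.72, 3.65 and 2.31 CPM. The peri-infarct tissue gave 20.4, 15.3, 29.1, 35.2 and 17.3 CPM. No peri-infarct library came near the contralateral range, and Tgfbi rose 7.31-fold (log2 2.87, SE 0.31, edgeR adjusted p = 7.63e-06).

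The stretches before the starts of Tgfbr1, Tgfbr2 and Tgfbi are printed as those of the receptors and the matrix gene that rose with Tgfb1 in both treatments. The Tgfbr1 sequence, at the first of 2 start sites, is chr4:47352972-47353221, plus strand. The Tgfbr2 sequence is chr9:116175364-116175613, minus strand. The Tgfbi sequence is chr13:56609336-56609522, plus strand, and is cut at 187 bases where the annotated gene begins.
Tgfbr1: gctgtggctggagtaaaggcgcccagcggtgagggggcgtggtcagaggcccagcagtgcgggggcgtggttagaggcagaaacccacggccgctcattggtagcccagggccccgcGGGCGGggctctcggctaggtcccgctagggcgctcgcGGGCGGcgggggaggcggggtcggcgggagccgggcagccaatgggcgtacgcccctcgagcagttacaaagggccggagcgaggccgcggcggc
Tgfbr2: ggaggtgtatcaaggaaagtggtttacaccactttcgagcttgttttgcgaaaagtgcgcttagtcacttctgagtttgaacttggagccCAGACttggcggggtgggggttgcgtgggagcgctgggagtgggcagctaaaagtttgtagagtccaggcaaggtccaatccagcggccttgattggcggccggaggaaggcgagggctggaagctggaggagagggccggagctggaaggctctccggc
Tgfbi: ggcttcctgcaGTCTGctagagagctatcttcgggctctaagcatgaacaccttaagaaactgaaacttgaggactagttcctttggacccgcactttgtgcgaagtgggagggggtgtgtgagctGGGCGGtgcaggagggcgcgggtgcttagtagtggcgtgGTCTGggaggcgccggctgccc

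The Tgfbr2 stretch held 1 CAGAC, 160 bases before the start, and the Tgfbi window held 2, at 239 and 85 bases before its RefSeq start, both on the opposite strand. Tgfbi also held 1 GC box. The SMAD palindrome, present in 0.167% of all promoters, and the AP-1 motif, present in 6.75%, were in no window of the 6 genes searched. Smad2 and Smad7 were not among them. Tgfbr1 and Smad3 held 2 GC boxes each and no CAGAC at their first start site, and the window of the second Tgfbr1 start held 1 CAGAC, 203 bases before it.

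The second comparison asked how peri-infarct tissue of mice labelled HPBCD differs from that of vehicle mice. Here 4 of the 10 genes were higher in HPBCD (Tgfb3, Tgfbr2, Tgfbr3 and Tgfbi) and none was lower, where 21.4% of 16224 genes were called, 12.4% as higher and 9.0% as lower. These directions hold only if the agent labels are right, which is in doubt and was not settled here. The median log2 fold change was 0.62 over the 10 genes and 0.01 over all genes. The libraries did not overlap for Tgfb3 and Tgfbr3, while 13.4% of all genes did not overlap and 7.46% were higher without overlap. This comparison shares its libraries with both region comparisons, so the values are set side by side and not counted as further evidence.

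**Figure D2:**
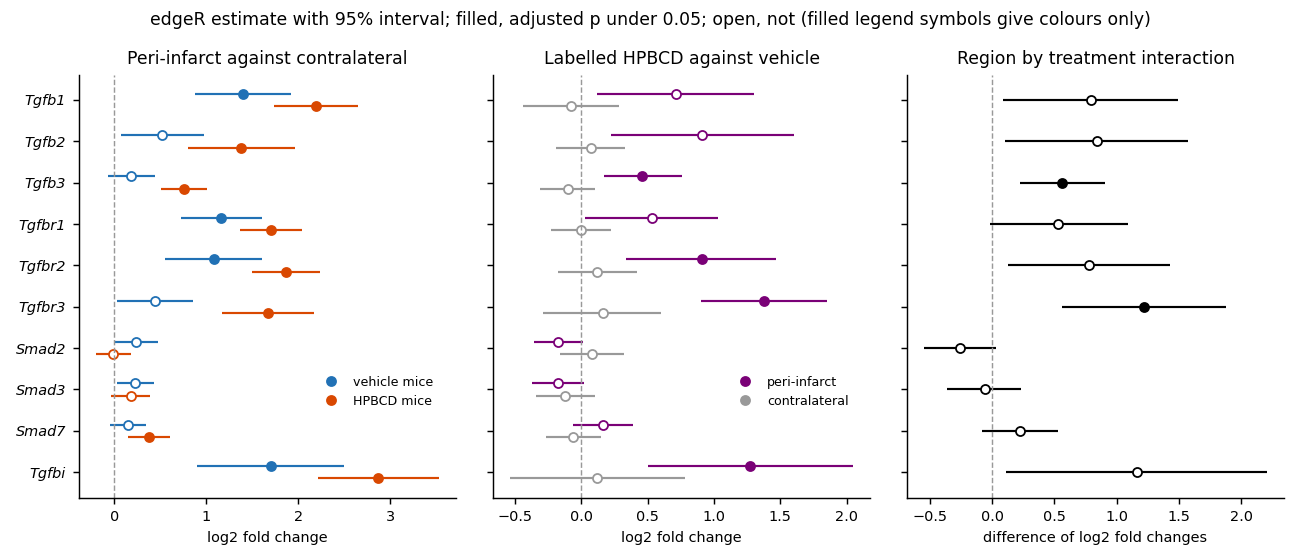
Log2 fold change with its 95% interval (horizontal axes) for each of the 10 genes in the region comparisons, the treatment comparisons and their interaction, where filled symbols passed an adjusted p of 0.05 and open ones did not. Tgfbi reaches 1.70 in vehicle and 2.87 in HPBCD mice, Smad2 and Smad3 stay near 0, and the contralateral treatment intervals all include 0.

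Tgfbr3 was higher under HPBCD without overlap between the libraries. Its 5 vehicle peri-infarct libraries ended at 17.1 CPM and its HPBCD libraries began at 23.8 CPM. Its mean level of 14.1 ± 2.62 CPM compared with 36.7 ± 12.5 CPM under HPBCD, a 2.60-fold difference (log2 1.38, SE 0.22, edgeR adjusted p = 0.0128). This call held in all 10 fits that left out 1 library, with log2 values from 1.17 to 1.5.

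Tgfbr2 was 1.87-fold higher (log2 0.91, SE 0.26, edgeR adjusted p = 0.0322), at 90.3 ± 23.6 against 47.9 ± 19.1 CPM, with overlap between the groups. Tgfbi was 2.42-fold higher (log2 1.27, SE 0.36, edgeR adjusted p = 0.0307), at 23.5 ± 8.44 against 9.66 ± 5.43 CPM, also with overlap. Tgfb3 was 1.38-fold higher (log2 0.46, SE 0.13, edgeR adjusted p = 0.0341), with its lowest HPBCD library just above its highest vehicle one (both round to 19.0 CPM). These calls were close to the threshold. When 1 library was left out, Tgfb3 passed in 6 of 10 fits and Tgfbr2 and Tgfbi in 5 of 10 each. All 3 lost the call without vehicle peri-infarct replicate 1 or 2 or without HPBCD peri-infarct replicate 3 or 4, and Tgfbr2 and Tgfbi also without vehicle peri-infarct replicate 5. The number of the 10 genes called was 1 without vehicle peri-infarct replicate 2 or without HPBCD peri-infarct replicate 3 or 4, 2 without vehicle peri-infarct replicate 1 or 5, and 6 without vehicle peri-infarct replicate 3. The count over all genes moved as well, from 3471 to 823 without HPBCD peri-infarct replicate 3, the library with high choroid plexus markers, and to 5339 without HPBCD peri-infarct replicate 2.

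Tgfb1 was 1.64-fold higher (log2 0.71, SE 0.27) and did not pass (edgeR adjusted p = 0.0758). Tgfb2 gave a log2 difference of 0.91 (SE 0.31, edgeR adjusted p = 0.0587), which was 0.56 without the library at 75.9 CPM. For Tgfbr1 the log2 difference was 0.53 (SE 0.23, edgeR adjusted p = 0.109). Fitting all 4 groups together called these 3 genes too, at adjusted p-values of 0.0233, 0.0102 and 0.0345 by edgeR, which makes 7 of the 10, while the calls over all genes went from 3471 to 4970. DESeq2 called 6, adding Tgfb1 (adjusted p = 0.0421) and Tgfb2 (adjusted p = 0.0231), and limma voom called 6, adding Tgfb1 (adjusted p = 0.0223) and Tgfbr1 (adjusted p = 0.0210). Over all genes these tools called 4719 and 6012. Smad2 and Smad3 were both at -0.18 (95% intervals -0.36 to 0.01 and -0.37 to 0.02), and Smad7 was at 0.16 (95% interval -0.06 to 0.39). None of the SMADs passed.

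In contralateral tissue none of the 10 genes was called between treatments by edgeR, DESeq2 or limma voom, and none had an unadjusted edgeR p under 0.05. Over all 15469 genes edgeR called 0 and limma voom 0, DESeq2 called 53, and 7.91% had an unadjusted edgeR p under 0.05. All 10 genes overlapped between the groups, as did all but 1.51% of the genes tested (0.957% were higher without overlap). The log2 differences of the 10 genes ran from -0.12 (Smad3) to 0.16 (Tgfbr3). The narrowest intervals were those of Tgfb3 (-0.31 to 0.10), Smad7 (-0.27 to 0.15) and Smad3 (-0.34 to 0.10). The widest was that of Tgfbi (-0.54 to 0.78), so a difference of that size in Tgfbi could not be detected here. No gene of the set was called when the 2 libraries with high striatal or choroid plexus markers were left out together.

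The region change itself was compared between treatments by an interaction term over all 20 libraries. It was called for Tgfb3 (log2 0.56, SE 0.17, edgeR adjusted p = 0.0411) and Tgfbr3 (log2 1.22, SE 0.32, edgeR adjusted p = 0.0269), both with the larger rise in HPBCD mice, where 9.41% of 16758 genes were called, 5.03% in that direction and 4.38% in the other. An unadjusted p under 0.05 was reached by 6 of the 10 genes and by 28.9% of all genes. The other ligands and receptors had interaction estimates from 0.53 (Tgfbr1, 95% interval -0.02 to 1.09) to 0.84 (Tgfb2, 95% interval 0.10 to 1.57) that did not pass, at edgeR adjusted p-values from 0.107 to 0.192. Tgfbi stood at 1.16 (95% interval 0.11 to 2.21, edgeR adjusted p = 0.136). Smad2 stood in the other direction at -0.26 (95% interval -0.55 to 0.03, edgeR adjusted p = 0.221), Smad3 at -0.06 and Smad7 at 0.22, none of which passed. Tgfbr3 passed in 17 of 20 fits that left out 1 library, and lost the call when replicate 2 of vehicle peri-infarct, replicate 3 of HPBCD peri-infarct or replicate 4 of HPBCD contralateral tissue was omitted. Tgfb3 passed in 8 of 20. Over all genes the count of 1577 became 529 without replicate 2 of vehicle peri-infarct tissue, 704 without replicate 4 of HPBCD contralateral tissue and 3121 without replicate 2 of HPBCD peri-infarct tissue. With the mouse as a block Tgfb3 no longer passed (edgeR adjusted p = 0.0595). It also did not pass without the 2 contralateral libraries with high striatal or choroid plexus markers (log2 0.59, edgeR adjusted p = 0.0623), while Tgfbr3 did (log2 1.37, edgeR adjusted p = 0.0296).

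The make-up of the ligand pool shifted towards Tgfb1 in the peri-infarct tissue. Within each library the level of a ligand per kilobase was divided by the sum over the 3 ligands, a share that needs no scaling between libraries. In vehicle contralateral replicates 1 to 5 the Tgfb1 share was 15.8, 11.7, 13, 13 and 14.3%. In vehicle peri-infarct tissue it was 17.3, 20.1, 34.2, 27.6 and 22.2%. These groups did not overlap, and the mean rose by 10.7 percentage points, from 13.5% to 24.3% (two-sided exact permutation test over 252 splits, p = 0.00794, the smallest it allows, adjusted over 4 comparisons p = 0.0317). HPBCD contralateral shares were 16.1, 15.8, 13.1, 9.33 and 10.9%. HPBCD peri-infarct shares were 32.4, 14.2, 27.6, 28.8 and 25.3%. Replicate 2, the library with 75.9 CPM of Tgfb2, had the low value and made the groups overlap. The difference was 12.6 points (exact permutation p = 0.0238, adjusted p = 0.0476). From raw counts in place of levels per kilobase it was 13 points and did not pass (exact permutation, adjusted p = 0.0635). The per-kilobase difference lost the call without HPBCD contralateral replicate 3, 4 or 5 (exact permutation, adjusted p = 0.0635 each), where fewer splits are possible. With the mouse as a block neither difference could pass (exact sign-flip test over 5 mice, adjusted p = 0.125 for both).

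**Figure D3:**
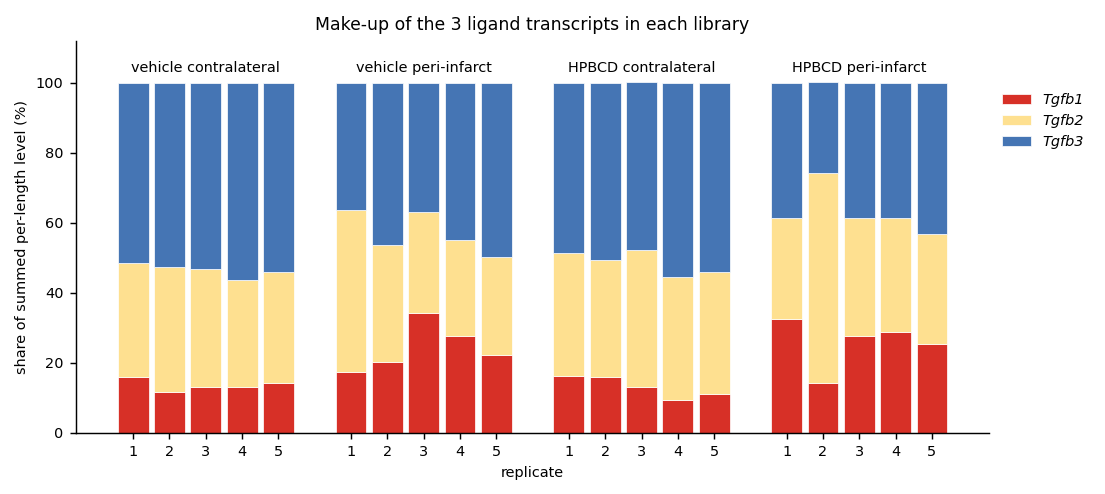
Share (percent, vertical axis) of Tgfb1, Tgfb2 and Tgfb3 in their summed level per kilobase, with 1 stacked bar for each library, grouped by region and treatment. Tgfb1 takes 9.33 to 16.1% in the contralateral libraries and 14.2 to 34.2% in the peri-infarct libraries, and Tgfb2 takes 60.1% in HPBCD peri-infarct replicate 2.

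The Tgfb3 share went from 53.6 ± 1.81% to 42.9 ± 5.98% in vehicle and from 51.4 ± 3.42% to 37.0 ± 6.60% in HPBCD mice. Its level itself did not fall, with means of 14.4 and 16.5 CPM in the vehicle regions and 13.5 and 22.9 CPM in the HPBCD regions. Tgfb2 held 32.9 ± 1.98% and 32.8 ± 7.96% in the vehicle regions and 35.6 ± 2.06% and 37.4 ± 12.8% in the HPBCD regions. Tgfb3 was thus the leading ligand transcript per length in all contralateral libraries. The Tgfb1 share did not pass a test between treatments, with a difference of 1.37 points in peri-infarct tissue and -0.492 points in contralateral tissue (exact permutation, adjusted p = 0.762 for both).

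The rest of the pathway was described by 5 lists of genes. Of 10 tested genes that store or release the ligand (Itgb6 was too low to test), 3 rose and 1 fell around the infarct in vehicle mice and 8 rose and 1 fell in HPBCD mice. Over all genes 20.2% and 54.6% were called in these comparisons and 21.4% between treatments in peri-infarct tissue, against which the counts of each list stand. In vehicle the 4 calls became 1 without peri-infarct replicate 1 or 4 or contralateral replicate 2 or 3, and 2 without replicate 5 of either region. In vehicle Itgb8, the integrin chain that frees latent TGF-beta, went from 52.3 ± 10.9 to 78.6 ± 14.4 CPM (log2 0.57, SE 0.16, edgeR adjusted p = 0.0250). Nrros, which anchors latent TGF-beta1 on microglia, went from 4.83 ± 0.592 to 7.09 ± 1.65 CPM (log2 0.54, SE 0.17, edgeR adjusted p = 0.0436), and lost the call with the mouse as a block (edgeR adjusted p = 0.0851) and in all leave-out fits but those without peri-infarct replicate 2 or contralateral replicate 1. Itgb8 lost the call without vehicle peri-infarct replicate 1 or 4 or vehicle contralateral replicate 2, 3 or 5 (edgeR adjusted p from 0.0536 to 0.0599). In HPBCD mice the latent binding protein gene Ltbp2 rose from 0.357 ± 0.167 to 8.46 ± 5.40 CPM (log2 4.48, SE 0.61, edgeR adjusted p = 5.25e-05). Ltbp2 was too low to test in contralateral tissue alone and passed the filter through its peri-infarct libraries. With no filter its log2 values were 4.40 in HPBCD mice (edgeR adjusted p = 2.43e-06) and 3.04 between treatments (edgeR adjusted p = 0.0193). Thbs1, an activator of the latent form, rose from 5.33 ± 4.92 to 25.4 ± 11.6 CPM (log2 2.26, SE 0.48, edgeR adjusted p = 0.00146). Between treatments in peri-infarct tissue 4 of the 10 were higher, which became 1 without vehicle peri-infarct replicate 1, 2 or 5 or HPBCD peri-infarct replicate 3 or 4. Among them was Lrrc32, which anchors latent TGF-beta on other cells, at 8.44 ± 1.92 against 3.71 ± 1.17 CPM (log2 1.18, SE 0.23, edgeR adjusted p = 0.0133). Ltbp2 was higher as well, at 8.46 ± 5.40 against 1.00 ± 1.36 CPM (log2 3.05, SE 0.81, edgeR adjusted p = 0.0268), a call that was lost in the same 5 leave-out fits. In the interaction 3 of the 10 were called, beside 9.41% of all genes, among them Ltbp2 (log2 3.77, SE 1.07, edgeR adjusted p = 0.0356) and Lrrc32 (log2 1.18, SE 0.32, edgeR adjusted p = 0.0294), which passed in 8 and 14 of 20 leave-out fits. These 3 calls became 0 when replicate 1 or 2 of vehicle peri-infarct, replicate 3 or 4 of HPBCD peri-infarct or replicate 4 of HPBCD contralateral tissue was omitted. They became 1 when replicate 5 of vehicle peri-infarct, replicate 1, 2 or 3 of vehicle contralateral or replicate 2 or 5 of HPBCD contralateral tissue was. Neither passed without both contralateral libraries that stood apart (edgeR adjusted p = 0.0801 and 0.0625). The 1 gene that fell in both region comparisons was Itgav, the partner chain of Itgb8, by 0.31 and 0.48 on the log2 scale, named here after its values were seen.

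Of 9 other receptors and co-receptors, which include receptors for activin and BMP, 1 rose in vehicle, and 3 rose and 1 fell in HPBCD mice, beside 20.2% and 54.6% of all genes called. The 1 vehicle call became 2 with the replicate block, with limma voom, in the joint fit and without contralateral replicate 4. The HPBCD calls fell from 4 to 2 without contralateral replicate 2 or 4. Bmpr1a, a BMP type I receptor, rose in both, from 51.9 ± 3.60 to 68.8 ± 6.84 CPM (log2 0.40, SE 0.08, edgeR adjusted p = 0.00779) and from 54.0 ± 8.39 to 90.4 ± 13 CPM (log2 0.74, SE 0.12, edgeR adjusted p = 0.000244). Bambi, a decoy receptor that dampens the pathway, rose by 0.84 in HPBCD mice (SE 0.22, edgeR adjusted p = 0.00655). Between treatments the activin receptors Acvr1b (log2 -0.51, SE 0.13, edgeR adjusted p = 0.0225) and Acvr2a (log2 -0.44, SE 0.11, edgeR adjusted p = 0.0238) were lower in HPBCD peri-infarct tissue, and 1 gene of the list was higher. These 3 calls became 0 without replicate 2 of vehicle or replicate 3 of HPBCD peri-infarct tissue, and 5 without replicate 2 of HPBCD. Both lost the call when replicate 2 of vehicle or replicate 3 of HPBCD was omitted, and Acvr2a also without replicate 5 of HPBCD (edgeR adjusted p at most 0.0628).

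Of 11 other SMADs and nuclear regulators, 4 rose and 1 fell in vehicle and 9 rose and 1 fell in HPBCD mice, beside the same 20.2% and 54.6% of all genes. With 1 library left out, the 5 vehicle calls became 4 to 7. Between treatments 4 were higher, which became 2 without vehicle replicate 1, 2 or 5 or HPBCD replicate 3 or 4 and 7 without HPBCD replicate 2 of the peri-infarct libraries. Tgif1, a nuclear co-repressor of SMAD2 and SMAD3, rose from 1.30 ± 0.506 to 5.15 ± 2.46 CPM in vehicle (log2 1.97, SE 0.38, edgeR adjusted p = 0.00629) and from 1.18 ± 0.193 to 10.1 ± 4.67 CPM in HPBCD (log2 3.10, SE 0.29, edgeR adjusted p = 3.09e-06). Zfyve9, the anchor that brings SMAD2 and SMAD3 to the receptor, was the gene that fell, by 0.43 in vehicle (SE 0.09, edgeR adjusted p = 0.00967). Between treatments the BMP mediator Smad5 differed in peri-infarct tissue, at 34.4 ± 3.22 CPM under vehicle and 50.7 ± 5.97 CPM under HPBCD (log2 0.56, SE 0.10, edgeR adjusted p = 0.0128). In HPBCD mice the inhibitory Smad6 rose around the infarct, from 3.60 ± 0.583 to 10.5 ± 3.73 CPM (log2 1.54, SE 0.22, edgeR adjusted p = 7.89e-05). Between treatments its peri-infarct levels were 4.64 ± 1.30 and 10.5 ± 3.73 CPM (log2 1.17, SE 0.25, edgeR adjusted p = 0.0164). Smad5 also differed in its region change (interaction log2 0.62, SE 0.12, edgeR adjusted p = 0.0144), as did Zfyve9 in the other direction (log2 -0.53, SE 0.14, edgeR adjusted p = 0.0276). The Zfyve9 interaction did not pass when replicate 2 of vehicle peri-infarct, replicate 3 of HPBCD peri-infarct or replicate 2 or 4 of HPBCD contralateral tissue was omitted, nor without both contralateral libraries that stood apart (log2 -0.47, edgeR adjusted p = 0.0673).

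**Figure D4:**
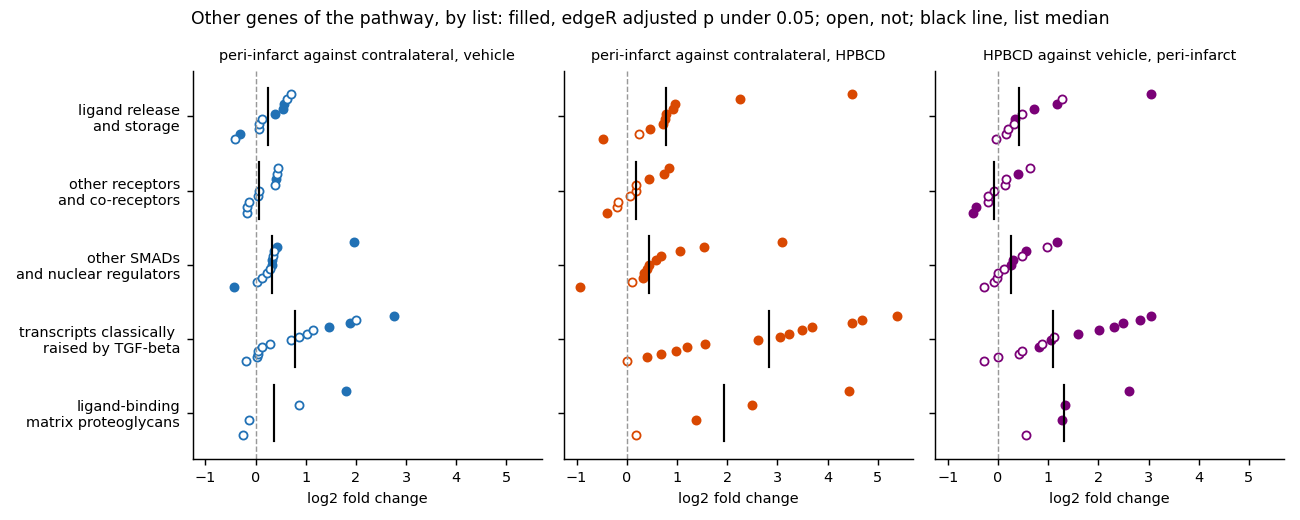
Log2 fold change (horizontal axes) of each tested gene of the 5 pathway lists in both region comparisons and in the peri-infarct treatment comparison, where filled points passed an adjusted p of 0.05, open points did not and a black line marks the list's median. The list of transcripts classically raised by TGF-beta has a median of 0.79, 2.83 and 1.09 in the 3 panels.

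Among 14 transcripts classically raised by TGF-beta, 3 rose in vehicle, 13 in HPBCD mice, and 8 were higher in HPBCD than in vehicle peri-infarct tissue. None was lower in any of these, and 20.2%, 54.6% and 21.4% of all genes were called. The vehicle count of 3 was 5 without peri-infarct or contralateral replicate 2 and in the joint fit, 2 without peri-infarct replicate 3, and 1 with at least 10 counts in every library, a filter that leaves out low genes. The medians were 0.79, 2.83 and 1.09 on the log2 scale, against 0.01, 0.03 and 0.01 over all genes. Timp1, an inhibitor of matrix proteases, rose from 0.419 ± 0.348 to 2.88 ± 2.19 CPM in vehicle (log2 2.76, SE 0.67, edgeR adjusted p = 0.0156) and from 0.267 ± 0.223 to 11.7 ± 5.99 CPM in HPBCD (log2 5.39, SE 0.56, edgeR adjusted p = 5.98e-06). It was too low to test in contralateral tissue alone and passed the filter through its peri-infarct libraries, and with no filter the log2 values were 2.74 (edgeR adjusted p = 0.00966) and 5.31 (edgeR adjusted p = 9.20e-08). Postn, the matrix protein periostin, rose in vehicle from 1.22 ± 0.321 to 4.54 ± 3.38 CPM (log2 1.88, SE 0.49, edgeR adjusted p = 0.0200). Col3a1, a fibrillar collagen, was 68.8 ± 38.2 CPM in HPBCD and 9.62 ± 10.7 CPM in vehicle peri-infarct tissue (log2 2.83, SE 0.62, edgeR adjusted p = 0.0169). In HPBCD mice it rose from 2.68 ± 1.32 CPM on the contralateral side (log2 4.69, SE 0.43, edgeR adjusted p = 2.73e-06). The interaction called 4 of the 14 and 1 of the 4 proteoglycans below, beside 9.41% of all genes, among them Ltbp2, Col1a2, another fibrillar collagen (log2 2.54, SE 0.76, edgeR adjusted p = 0.0416), and Dcn (log2 2.62, SE 0.77, edgeR adjusted p = 0.0389). Col1a2 and Dcn each passed in 9 of 20 leave-out fits. The 4 calls became 1 when replicate 1, 2 or 5 of vehicle peri-infarct, replicate 3 of vehicle contralateral, replicate 3 or 4 of HPBCD peri-infarct or replicate 2, 4 or 5 of HPBCD contralateral tissue was omitted, and 2 when replicate 2 or 5 of vehicle contralateral tissue was. They became 7 without replicate 3 of vehicle and 10 without replicate 2 of HPBCD peri-infarct tissue, and 9 with DESeq2 or limma voom. The 1 proteoglycan call became 0 in the 11 fits in which Dcn was lost, and 2 without replicate 3 of vehicle peri-infarct, replicate 2 of HPBCD peri-infarct or replicate 3 of HPBCD contralateral tissue. Of the 14, Col1a1 is also a fibroblast marker here, and Ltbp2, Pmepa1 and Skil stand in a second list, so the lists are not separate counts. Among 4 proteoglycans that bind the ligand in the matrix, 1 rose in vehicle, 3 in HPBCD mice, and 3 were higher between treatments, where 20.2%, 54.6% and 21.4% of all genes were called. The vehicle call was Dcn (log2 1.80, edgeR adjusted p = 0.0492). It was lost without vehicle peri-infarct replicate 4 (log2 1.01, edgeR adjusted p = 0.145) or 5, or vehicle contralateral replicate 1, 3, 4 or 5. Dcn (decorin), also a fibroblast marker, stood at 32.6 ± 31.5 CPM around the infarct under vehicle and at 200.6 ± 98.2 CPM under HPBCD (log2 2.61, SE 0.55, edgeR adjusted p = 0.0153). In HPBCD mice Dcn rose from 9.24 ± 5.01 CPM (log2 4.43, SE 0.43, edgeR adjusted p = 3.75e-06) and Bgn (biglycan) from 9.42 ± 4.85 to 53.1 ± 18.4 CPM (log2 2.49, SE 0.32, edgeR adjusted p = 3.44e-05). Fmod (fibromodulin) was 20 ± 11.3 CPM under vehicle and 50.5 ± 22.0 CPM under HPBCD around the infarct (log2 1.33, SE 0.43, edgeR adjusted p = 0.0463). It lost the call with limma voom (adjusted p = 0.0590), in the joint fit (edgeR adjusted p = 0.0904), and without replicate 2, 4 or 5 of vehicle or 2, 3 or 4 of HPBCD. Without HPBCD peri-infarct replicate 3 the treatment comparison called 5 of the 14 raised transcripts and 1 of the 4 proteoglycans. In contralateral tissue edgeR called none of the tested genes of the 5 lists between treatments. Itgb6, Ltbp2 and Timp1 were too low to test there.

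Markers of several cell types moved with these results. All 8 microglia and macrophage markers were higher around the infarct in both treatments, and their summed level ran from 319.0 to 394.8 CPM and from 598.7 to 1759 CPM in the vehicle regions, and from 318.3 to 374.5 CPM and from 1007 to 2133 CPM in the HPBCD regions. The median log2 change of these markers was 1.30 in vehicle and 1.91 in HPBCD, beside 1.40 and 2.19 for Tgfb1 and 1.16 and 1.70 for Tgfbr1. Of 6 astrocyte markers 4 rose in vehicle (median log2 0.70) and 5 in HPBCD (median log2 1.09). Over all genes 20.2% were called in vehicle, 10.5% as higher, and 54.6% in HPBCD, 30.3% as higher. The counts of every marker list stand against these shares. All 7 neuronal markers were lower in HPBCD peri-infarct tissue than on the contralateral side, and 3 of 7 in vehicle. Endothelial markers (6 genes) had medians of -0.25 and -0.13, with 0 called in vehicle and 1 higher and 2 lower in HPBCD mice. Further lists were called in full in HPBCD mice. Fibroblast and meningeal markers were higher for 6 of 6 (median log2 3.37) and for 2 of 6 in vehicle (median log2 1.06). Ependymal markers were higher for 4 of 4 (median log2 5.85) and for 2 of 3 tested in vehicle (median log2 1.42). Striatal markers were higher for 6 of 6 (median log2 3.08), at 366.6 to 1150 CPM against 139.1 to 170.1 CPM, with 0 of 6 called in vehicle. The vehicle sums of the striatal markers were 230.9 to 1234 CPM around the infarct and 123.5 to 192.2 CPM on the other side, apart from its contralateral replicate 1 at 2060 CPM. Oligodendrocyte markers were higher for 6 of 6 (median log2 1.18), at 12432 to 19118 CPM against 5488 to 6925 CPM, with 0 of 6 called in vehicle. Markers of perivascular and border macrophages were higher for 5 of 5 (median log2 1.55) and for 0 of 5 in vehicle. Those of oligodendrocyte precursors were higher for 4 of 4 (median log2 0.89) and for 2 of 4 in vehicle. Ccdc153 and Tmem212 of the ependymal list and Lyve1 of the border macrophage list were too low to test in contralateral tissue alone, so their calls were partly set by the filter. Lymphocyte markers were too low there for any test and are given as sums. Those of T cells summed to 0 to 0.228 CPM in HPBCD contralateral and 2.82 to 4.97 CPM in HPBCD peri-infarct tissue, and to 0 to 0.550 CPM and 0.461 to 5.76 CPM in the vehicle regions. Those of B and plasma cells summed to 0.499 to 0.789 CPM and 3.24 to 11.4 CPM in the HPBCD regions, and to 0.815 to 3.67 CPM and 3.21 to 7.21 CPM in the vehicle regions. The part of these cell types in the changes of the 10 genes was not tested.

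**Figure D5:**
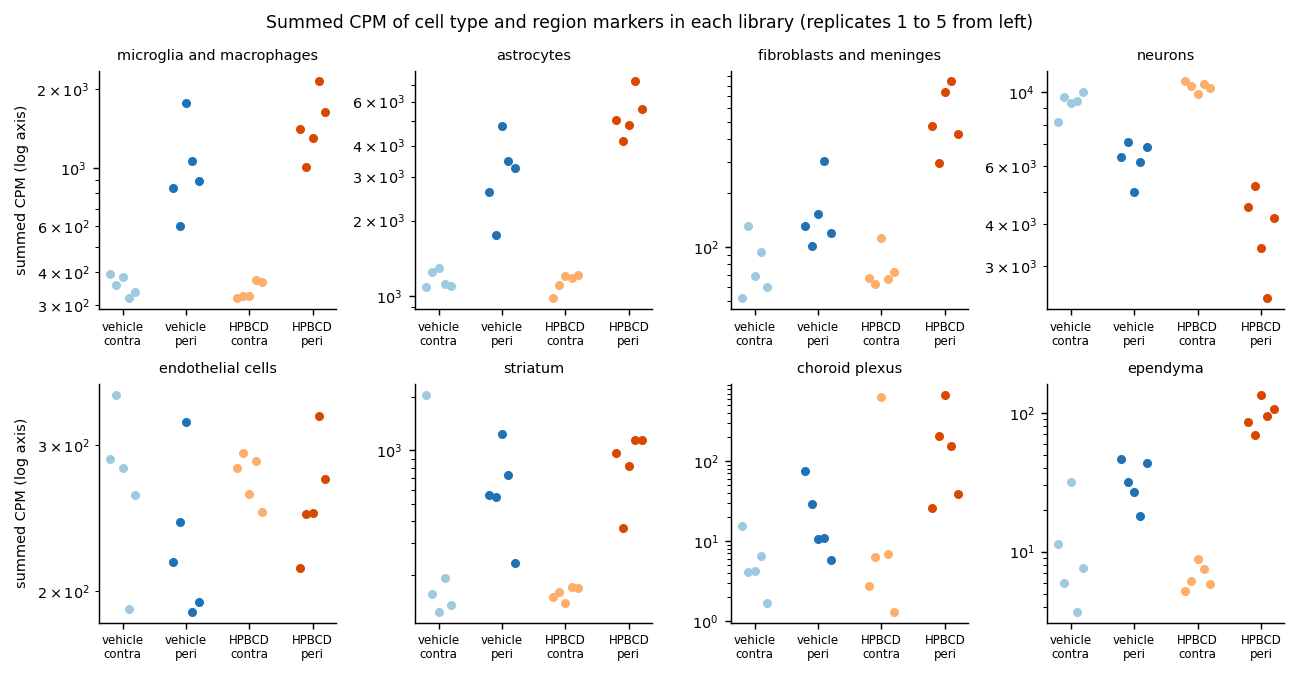
Summed CPM (log axes) of 8 marker lists in each of the 20 libraries, by group, with 1 point for each library. Microglia and astrocyte sums are higher in peri-infarct tissue and neuronal sums lower. Fibroblast and ependymal sums are higher there in HPBCD mice, and their vehicle regions overlap. Striatal and choroid plexus sums are raised in peri-infarct libraries too (to 1234 and 676.7 CPM), and single contralateral libraries reach 2060 and 632.7 CPM.

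Between treatments in peri-infarct tissue, fibroblast and meningeal markers were higher along with Tgfbr3, Tgfb3, Tgfbr2 and Tgfbi. Of 6 such markers 5 were higher in HPBCD (median log2 2.11), and their sum was 100.9 to 304.2 CPM in vehicle and 295.4 to 843.7 CPM in HPBCD. Markers of perivascular and border macrophages (3 of 5 higher), ependyma (3 of 4 higher) and choroid plexus (2 of 4 higher) were also raised. Neuronal markers were lower for 5 of 7 and astrocyte markers higher for 2 of 6, again in the direction the labels give. The counts of every list here stand against 21.4% of all genes called in this comparison, 12.4% as higher and the rest as lower. Endothelial, oligodendrocyte, and pericyte and smooth muscle markers were higher for 1 of 6 each, and B and plasma cell markers for 1 of 3 tested. Striatal and oligodendrocyte precursor markers had 0 of 6 and 0 of 4 called, and T lymphocyte markers 0 of 3 tested. Microglia and macrophage markers had a median log2 difference of 0.42 with 0 of 8 called. T lymphocyte markers were sparse throughout, with Cd3d at 0 in all contralateral libraries and a sum of at most 5.76 CPM. The part of these cells in the treatment differences was not tested.

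Across the 20 libraries the log2 CPM of Tgfb1 and Tgfbr1 had Pearson correlations of 0.96 and 0.98 with the summed microglia and macrophage markers. With the astrocyte markers they had 0.96 and 0.99, with the fibroblast markers 0.89 and 0.88, and with the neuronal markers -0.94 and -0.95. Tgfbr2 and Tgfbi had 0.95 and 0.94 with the microglia markers and 0.93 and 0.94 with the fibroblast markers, so these values do not separate the lists. Tgfb3 and Tgfbr3 each had 0.94 with the fibroblast markers, against 0.85 and 0.76 with the microglia markers. For Smad2 the correlations with fibroblast and microglia markers were 0.13 and 0.20. These correlations describe libraries that share the same group differences and, in pairs, the same mice. After the group means were taken out, Tgfbr2 and Tgfbi still varied together (r = 0.91 over 20 libraries), as did Tgfb1 and Tgfbr2 (r = 0.82), whereas Tgfb2 did not follow Tgfb1 (r = -0.05).

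Among 11765 genes with a mean of at least 5 CPM, the genes most like each of the 10 over the 20 libraries, by Pearson r of log2 CPM, were of different kinds. Tgfbr1 was closest to Slc15a3, Itgam and Dock2 (r = 0.99 each), and Itgam encodes the CD11b chain of myeloid cells. Tgfbr2 was closest to Itpripl2, Arpc1b and Agtrap (r = 0.99 each), Tgfbi to Tcn2 (r = 0.99), Nucb1 and Ctsc, and Tgfb1 to Runx1, Man2b1 and Man2b2 (r = 0.98 each). Tgfb3 was closest to Itgb1, Serpinh1 and Gas1 (r from 0.95 to 0.96), of which Serpinh1 is the collagen chaperone. Tgfbr3 was closest to Nid1, Thbs2 and Ddr2 (r = 0.97 each), which encode a basement membrane protein, a matrix glycoprotein and a collagen receptor. Tgfb2 was closest to Zbtb20, Susd6 and Arhgap12 (r from 0.92 to 0.94), Smad7 to Rab33b, Abcg1 and Enpp4 (r from 0.88 to 0.89), and Smad3 to Pgap1, Kirrel3 and Cdh13 (r from 0.83 to 0.89). Smad2 had no gene above 0.81.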

How the data were processed

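RNA of peri-infarct and contralateral tissue was sequenced in 20 libraries, 5 per group, with groups read from titles and agent labels. Per the authors, poly(A) RNA went through a strand-specific kit. Their processing notes name Trimmomatic 0.32, STAR 2.5.2b, HTSeq and GRCm38. The deposited values are raw counts per Ensembl gene, with no normalization, and the annotation release and strand option of the counting are not given in the sources used here. Of 46078 genes, 45143 (97.97%) were in GENCODE M21 of GRCm38 and held 99.933% of the counts. The 5 lines of each table that name no gene were left out (without a feature 4.39 to 9.503% of read pairs, ambiguous 3.941 to 8.03%, not aligned uniquely 16.58 to 24.3%). Both of the first upper ends are HPBCD contralateral replicate 4.

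Differences were tested with edgeR 4.0.16 in R 4.3.3 (TMM factors, filterByExpr, quasi-likelihood F test, Benjamini-Hochberg over all genes, threshold 0.05), on the 10 libraries of a comparison or all 20 for the interaction. The SE is the log2 fold change divided by the square root of F. Alternatives were DESeq2 1.42.0, limma voom (limma 3.58.1), RLE factors, no filter, a minimum of 10 counts everywhere, a block on the replicate number, a joint fit of all 4 groups and the omission of each library. A joint leave-out of 2 contralateral libraries was chosen after seeing the data. The tests were first run on simulated data. All 10 genes are named. From each pathway list and comparison up to 2 genes are named, those with the largest change among called genes with a mean of at least 1 CPM. The 10 genes, the lists and the markers were chosen with earlier results of these data known.

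Within a treatment, libraries of both regions with the same number carry 1 identifier in the names as deposited. It was read as the mouse, so the numbers pair the regions. The main fits held no term for the mouse. Their region and interaction p-values rest on the spread between libraries within groups and treat the 2 libraries of a mouse as independent. The pairing entered only in the fits with a block. Deviations of paired libraries from the group means correlated with a mean r of 0.0876 over 10 pairs, and 4 pairs were over 0.1. Between treatments the number is only a name. Floors of 3 counts cover counting error only. Promoter sequences are from RefSeq (GRCm38.p6).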

Additional observations from a re-analysis of the deposited data

Results flagged for a closer look

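Across the libraries, 2 values stood apart from the other 4 libraries of their group, by Dixon's criterion, among 44 groups examined, where chance gives about 1 in 20. Tgfb2 was 18.7 CPM in HPBCD contralateral replicate 3, against 15.0 to 15.6 CPM in the others. The same library carries the high choroid plexus markers, and whether these bear on its Tgfb2 level was not tested. Tgfbi was 4.74 CPM in vehicle contralateral replicate 2, against 2.12 to 2.80 CPM in the others. The same library has the highest sums of fibroblast and meningeal markers (130.6 CPM, others 51.6 to 94.3 CPM) and of perivascular and border macrophage markers (15.7 CPM, others 3.15 to 9.13 CPM) of its group, and their part was not tested. Without that library the Tgfbi change around the infarct in vehicle mice was 1.95 on the log2 scale in place of 1.70.

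The region change differed between treatments, by the interaction term of edgeR, for Tgfb3 (log2 0.56) and Tgfbr3 (log2 1.22). The vehicle and HPBCD region changes behind them were 0.18 and 0.76 for Tgfb3 and 0.44 and 1.67 for Tgfbr3.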

How the results depend on the processing

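No called change of the 10 genes turned its sign under any alternative. The estimates that changed sign were called in neither fit. Smad2 in the HPBCD region comparison was 0.01 with at least 10 counts in every library, and -0.05 to 0.03 with 1 library left out. Between treatments in contralateral tissue, Tgfbr1 was 0.00 with DESeq2 and with RLE factors, 0.07 with limma voom, 0.01 with 4 groups in 1 fit and -0.04 to 0.08 with 1 library left out. In the same comparison leave-outs gave -0.18 to 0.36 for Tgfbi and -0.17 to 0.02 for Tgfb1, and omitting both libraries with high striatal or choroid plexus markers gave -0.02 for Tgfb2 and -0.20 for Tgfbi. Smad3 in the interaction ran from -0.13 to 0.03.

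With each library left out in turn, the number of the 10 genes called was 4 to 6 in the vehicle region comparison and 8 in every fit of the HPBCD one. Between treatments in peri-infarct tissue it was 7 with all 4 groups in 1 fit, 6 with DESeq2, 6 with limma voom and 1 to 6 in the leave-outs. In the interaction it was 4 with limma voom, 1 without a filter on low counts, 1 with the replicate block, 1 without the pair of contralateral libraries and 0 to 6 in the leave-outs. It was 0 when replicate 2 of vehicle peri-infarct, replicate 3 of HPBCD peri-infarct or replicate 4 of HPBCD contralateral tissue was omitted, and 6 when replicate 3 of vehicle peri-infarct tissue was. The cause was not tested. With the replicate block the Tgfb1 share differed by 10.7 points in vehicle and 12.6 points in HPBCD mice (exact sign-flip test, adjusted p = 0.125 for both). The block changed no other call of the 10 genes in the region comparisons. On raw counts the HPBCD difference in share was 13 points (exact permutation, adjusted p = 0.0635). Leave-outs gave 8.25 to 12.5 points in vehicle, 10.9 to 15.5 points in HPBCD, -0.375 to 4.23 points between treatments in peri-infarct and -1.25 to 0.439 points in contralateral tissue.

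Of all genes, limma voom called 5065 in the vehicle region comparison, 6012 between treatments in peri-infarct tissue and 4110 in the interaction, against 3195, 3471 and 1577 by edgeR. DESeq2 called 2504 in the interaction. For the named genes of the pathway lists, 79 leave-out fits lost the call, 311 kept it and none changed sign. Every one of the 10 genes had at least 39 counts in each library, and the spread between mice sets the width of the intervals.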
